A study of Danio rerio with 14 samples.

Results

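The livers of Src(p53-) and HBx(p53-) zebrafish, lines that carry different single transgenes in the same p53 mutant background, were compared at matched diets across all genes. Every array labelled Src(p53-) or HBx(p53-) was used, which gave 3 arrays per line (1 each for NOR, DIO and FAT) and 6 of the 14 arrays of the series. The Src(p53-) line is Tg(fabp10a:Src(p53-)) and the HBx(p53-) line is Tg(fabp10a:HBx(p53-)). In both, the liver promoter of fabp10a drives the transgene, and both carry the p53 mutation, so the mutation is shared by the lines compared. The other 8 arrays were 4 of wild type (WT, AB strain, without the p53 mutation) and 4 of HBx,Src(p53-), which carries both transgenes. Feeding began at 3 months of age and lasted 8 weeks. NOR fish received 0.5 mL of Artemia in 1 daily feeding. Overfed fish (DIO) received 2 mL in each of 3 daily feedings, 12 times the normal amount, and high-fat fish (FAT) received the NOR portion together with 0.22 g of high-fat food in each of 3 feedings. Fish and arrays were equal in number in the methods. An array was therefore read as the liver of 1 fish, and neither the founder nor the sex of a fish is in the labels used here. Fish-to-fish and technical variation are mixed in every p-value below, and anything other than the transgene that separates the lines cannot be told apart from it.

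Src is a non-receptor tyrosine kinase that is held inactive by C-terminal phosphorylation through Csk and that, once active, phosphorylates focal adhesion and junction proteins such as Fak, paxillin and p120 catenin. HBx is the small regulatory protein of hepatitis B virus, which acts through host proteins in the nucleus and the cytoplasm. Both are linked to liver cancer. p53 is the tumor suppressor whose targets arrest the cell cycle or start cell death, and it is mutant in both lines. The matched comparison therefore asks how a liver with a Src transgene differs from one with an HBx transgene when the p53 mutation and the diet are shared.

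The arrays were whole-transcriptome ZebGene 1.1 ST arrays, and all levels are log2 values, on which a difference of 1 is a 2-fold difference. A gene was called at an adjusted p under 0.05 over the 20908 genes tested. Array medians over all probe sets, unnamed ones included, were between 2.1 and 2.23. A level near 2 was therefore that of the median probe set, and not that of the median gene tested. All 6 livers carried hepatocyte markers at high level: the mean of 16 markers was between 11.64 and 11.78 in HBx(p53-) and between 11.52 and 11.71 in Src(p53-). Markers of the exocrine pancreas had a mean of 5.59, 4.89 and 6.72 in HBx(p53-) NOR, DIO and FAT against 3.68, 4.71 and 4.46 in Src(p53-), and their genes are described below. Markers of germ cells and of skeletal muscle stayed near the array median, with means between 1.99 and 2.18. The red blood cell markers were highest in HBx(p53-) DIO at 5.50, against 4.34 to 4.88 in the other 5 arrays. In whole liver, fewer cells of a type and less RNA per cell cannot be told apart.

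Over the 3 diets 1 gene was called higher in Src(p53-) (0.00478% of the genes tested) and 0 were called lower (0%). At an unadjusted p under 0.05, 582 genes were higher (2.78%) and 445 were lower (2.13%), in all 1027 where 1045 would be expected with no difference at all. The 3 Src(p53-) arrays lay above the 3 HBx(p53-) arrays for 1178 genes (5.63%) and below them for 1021 (4.88%). The median difference over all genes was 0.02, and 11055 genes were higher in Src(p53-) against 9853 lower. The median standard error of a difference over diets was 0.291. Differences were estimated as the mean of the 3 diet-matched differences, with the standard error from all 14 arrays.

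The called gene was zgc:171470, a gene with no further name in the annotation used here. Its level was 1.95, 1.73 and 2.22 in HBx(p53-) NOR, DIO and FAT and 8.41, 8.08 and 8.53 in Src(p53-). It was thus near the bottom of the scale in every HBx(p53-) liver (1.96 ± 0.25 SD, n = 3) and well expressed in every Src(p53-) liver (8.34 ± 0.23 SD, n = 3), a difference of 6.38 ± 0.42 (SE) on the log2 scale (limma, adjusted p = 0.000157). The HBx(p53-) level was at the array median and not shown to be above background, so no fold is given. The 4 arrays of each other line were alike as well: zgc:171470 lay between 7.07 and 9.62 on the 4 WT arrays and between 1.38 and 2.32 on the 4 HBx,Src(p53-) arrays. The Src(p53-) level was therefore within the range of WT, and the low level was that of the arrays that carry HBx. The gene was called in each of the 14 fits that left out 1 array. With the mean exocrine pancreas marker level as a covariate the difference was 6.05 (adjusted p = 0.105).

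A second zgc gene, zgc:171534, showed the same separation of the 6 arrays without passing the test. It stood at 2.25, 1.83 and 2.40 in HBx(p53-) and at 8.51, 8.70 and 9.21 in Src(p53-), a difference of 6.65 ± 1.15 (adjusted p = 0.452). Among the other arrays only WT FAT was high (9.22), while the other WT arrays were at 2.04, 2.10 and 1.84 and the HBx,Src(p53-) arrays between 2.31 and 2.68. That single array decided the call, since without WT FAT the adjusted p of zgc:171534 was 1.33e-07. The gene was therefore split within WT, and a high level was not particular to Src(p53-) livers.

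BEAN1 had the second-lowest adjusted p over diets. It was at 2.28, 1.68 and 2.08 in HBx(p53-) and at 3.39, 3.54 and 3.78 in Src(p53-), a difference of 1.56 ± 0.22 (adjusted p = 0.161). It reached an adjusted p of 0.0321 in the fit without a diet term.

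The other genes higher in Src(p53-) by the size of their test statistic had adjusted p between 0.543 and 0.657. srxn1, sulfiredoxin, which repairs overoxidized peroxiredoxins, was at 3.23, 3.22 and 3.62 in HBx(p53-) and 5.55, 5.34 and 5.06 in Src(p53-), a difference of 1.96 ± 0.37. The groups did not overlap, and the WT arrays (3.44 to 5.30) lay mostly between them, with a range that reached into both. pllp, which encodes the membrane protein plasmolipin, was at 4.25, 4.46 and 4.79 against 5.78, 6.12 and 6.53 (difference 1.64 ± 0.30). For pllp the arrays with a Src transgene were all above those without one, since HBx,Src(p53-) was between 6.65 and 7.50 and WT between 4.22 and 5.55. ahcyl1, a relative of S-adenosylhomocysteine hydrolase, was at 2.48, 2.90 and 3.01 against 4.26, 4.32 and 5.28 (1.82 ± 0.37). mat2al, named for methionine adenosyltransferase, was at 2.50, 3.29 and 3.87 against 4.93, 4.34 and 5.12 (1.58 ± 0.34).

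The remaining genes of that ranking were fam167b (difference 2.68 ± 0.54), tshz2 (1.27 ± 0.28), mtmr3 (1.17 ± 0.23), cyp2aa9 (1.12 ± 0.22) and cep192 (1.01 ± 0.21). mtmr3, a myotubularin-related phosphoinositide phosphatase, was at 3.36, 3.34 and 3.51 in HBx(p53-) and 4.68, 4.38 and 4.67 in Src(p53-). cyp2aa9 belongs to a cluster of cytochrome P450 genes whose copies are close in sequence, so its probes may also read its neighbours. It was at 1.96, 1.81 and 1.85 against 2.55, 3.11 and 3.32, low in both lines. All of these genes had 3 Src(p53-) arrays above 3 HBx(p53-) arrays.

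**Figure D1:**
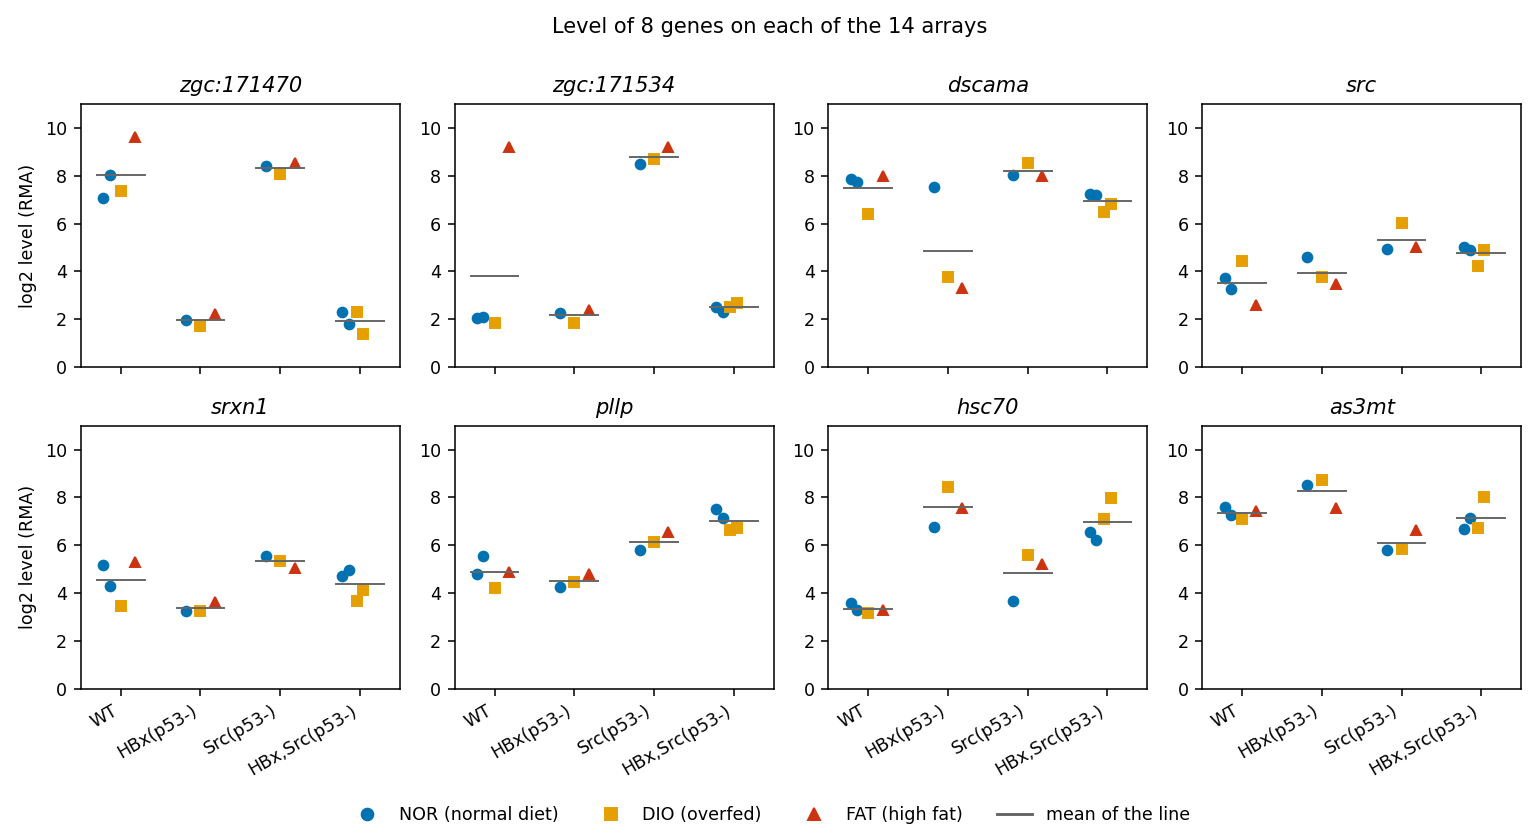
Log2 level (vertical axis, 0 to 11) of 8 genes on all 14 arrays, grouped along the horizontal axis by line, with a symbol for each diet and a bar for the mean of each line. In zgc:171470 the 3 HBx(p53-) arrays sit at 1.73 to 2.22 and the 3 Src(p53-) arrays at 8.08 to 8.53, and in hsc70 all arrays that carry HBx lie above all others.

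Genes lower in Src(p53-) were led by a chaperone, an arsenic methyltransferase and digestive enzymes, and none passed the test. hsc70, a heat shock cognate chaperone of the Hsp70 family, was at 6.76, 8.45 and 7.55 in HBx(p53-) and 3.68, 5.59 and 5.22 in Src(p53-), a difference of −2.75 ± 0.41 (adjusted p = 0.202). The lowest HBx(p53-) array was above the highest Src(p53-) array. WT lay below both lines (3.16 to 3.56) and HBx,Src(p53-) beside HBx(p53-) (6.23 to 7.98), so that for hsc70 too the arrays with HBx stood apart from those without. as3mt, the arsenite methyltransferase, was at 8.53, 8.72 and 7.57 against 5.79, 5.85 and 6.64 (−2.18 ± 0.41). Here the Src(p53-) arrays were below all others, with WT between 7.11 and 7.59 and HBx,Src(p53-) between 6.68 and 8.03. The HBx,Src(p53-) arrays at 6.68 and 6.70 were only just above the highest Src(p53-) array (6.64).

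Of the 12 genes ranked lowest, 6 encode digestive enzymes made by the exocrine pancreas: cela1.5 and ela2 (elastases), ctrl and ctrb.1 (chymotrypsins), amy2al2 (amylase) and cpa1 (carboxypeptidase A). cela1.5 was at 6.27, 5.63 and 8.20 in HBx(p53-) against 2.85, 3.86 and 4.71 in Src(p53-) (−2.89 ± 0.47, adjusted p = 0.328). ela2 was at 6.90, 5.67 and 7.98 against 2.93, 4.60 and 4.35 (−2.89 ± 0.55). The differences of the other 4 were −1.88 ± 0.38 for ctrl, −1.77 ± 0.36 for ctrb.1, −1.36 ± 0.29 for amy2al2 and −1.91 ± 0.43 for cpa1. The rest of this ranking were si:ch211-240l19.6 (−2.19 ± 0.49), si:cabz01071909.2 (−1.57 ± 0.30), zgc:64002 (−1.12 ± 0.24) and nrsn1l, a neurensin-like gene (−0.85 ± 0.17), with adjusted p of 0.543 to 0.691 for all genes of the ranking other than hsc70 and cela1.5.

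**Figure D2:**
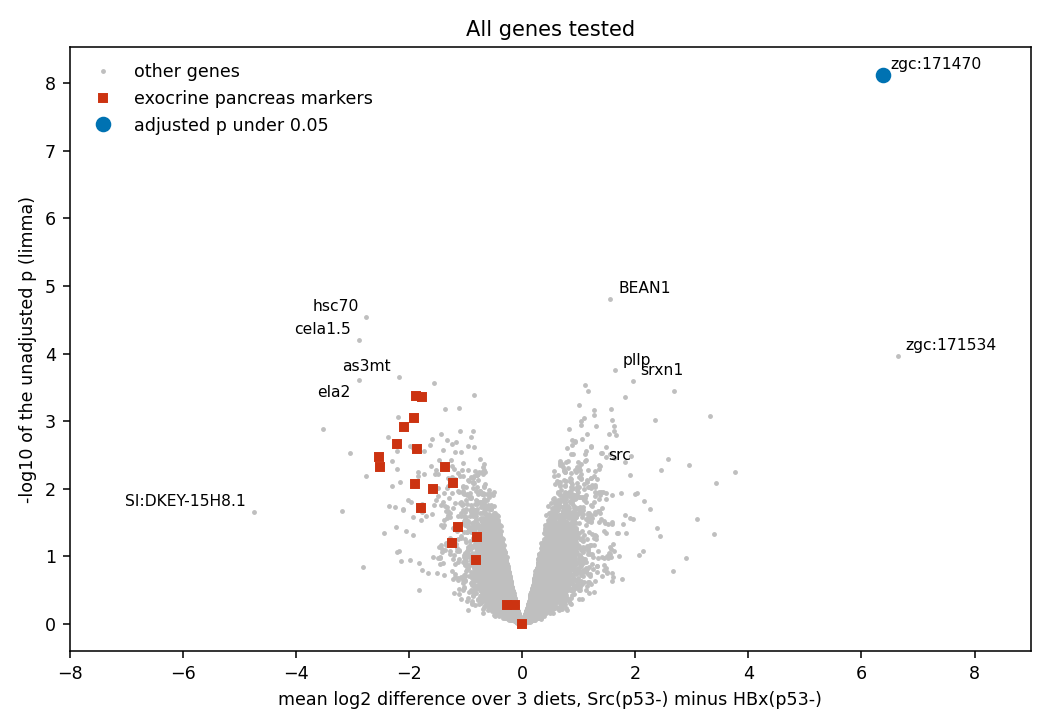
Mean log2 difference over the 3 diets, Src(p53-) minus HBx(p53-) (horizontal axis), against −log10 of the unadjusted limma p (vertical axis) for the 20908 genes tested. The called gene zgc:171470 is drawn as a blue circle at 6.38, and 19 of the 20 exocrine pancreas markers (red squares) lie below 0.

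Of the 12 marker lists, that of the exocrine pancreas had the largest median difference between the lines. Of 20 measured exocrine pancreas markers, 19 were lower in Src(p53-), 12 had all Src(p53-) arrays below all HBx(p53-) arrays (against 4.88% of all genes), 14 were lower at an unadjusted p under 0.05 (against 2.13%) and 0 were called. Their median difference was −1.68, beside 0.02 for all genes. The mean level of the 20 markers was 5.73 ± 0.92 (SD, n = 3) in HBx(p53-) and 4.28 ± 0.53 (SD, n = 3) in Src(p53-). The 3 arrays of each line did not overlap, and the exact two-sided permutation p was 0.1, the smallest that 3 arrays against 3 allow. This permutation did not keep the pairing by diet.

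The difference was uneven across diets. The median of the markers was −1.90 at NOR and −2.67 at FAT but −0.22 at DIO, where HBx(p53-) was lowest of its line and Src(p53-) highest. cpb1, carboxypeptidase B, was at 8.25, 6.63 and 9.30 in HBx(p53-) against 4.42, 6.61 and 5.58 in Src(p53-) (−2.52 ± 0.68). prss59.2, a trypsin, was at 10.93, 9.68 and 11.78 against 7.40, 9.53 and 8.83 (−2.21 ± 0.56), and cpa5, another carboxypeptidase A, at 7.78, 7.38 and 9.88 against 4.87, 7.13 and 6.77 (−2.09 ± 0.49). In each of these enzymes the DIO arrays of both lines nearly met, while NOR and FAT were far apart. The same mean was between 3.41 and 4.30 in WT and between 4.76 and 5.93 in HBx,Src(p53-). 7 of the 20 markers had a mean below 3, and ptf1a, a transcription factor of acinar cells, was near the bottom of the scale in all 6 arrays (1.21 to 1.53). Endocrine pancreas markers were between 2.03 and 2.71 in HBx(p53-) and between 1.97 and 2.24 in Src(p53-), and 10 of 11 were below 3. The amount of pancreatic RNA in each sample and the level per cell cannot be told apart here. With the markers' mean as a covariate the difference was −1.26 for cela1.5, −1.19 for ela2, −0.33 for cpa1 and 0.15 for cpb1. The covariate is made of pancreatic enzyme markers, so smaller differences of such enzymes with it were built in and tell nothing further. The covariate itself did not overlap between the lines. For any gene or list, a change with the covariate therefore cannot tell pancreatic RNA from line. The part of pancreatic RNA in the other differences was not tested. Genes without a covariate value beside them could move too. With the covariate the difference was −0.53 for si:ch211-240l19.6, −1.11 for si:ch211-133n4.9, 1.80 for crp and 2.60 for il23r. Some differences were larger with it, such as those of as3mt (−2.82) and slc3a2a (−3.94).

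**Figure D3:**
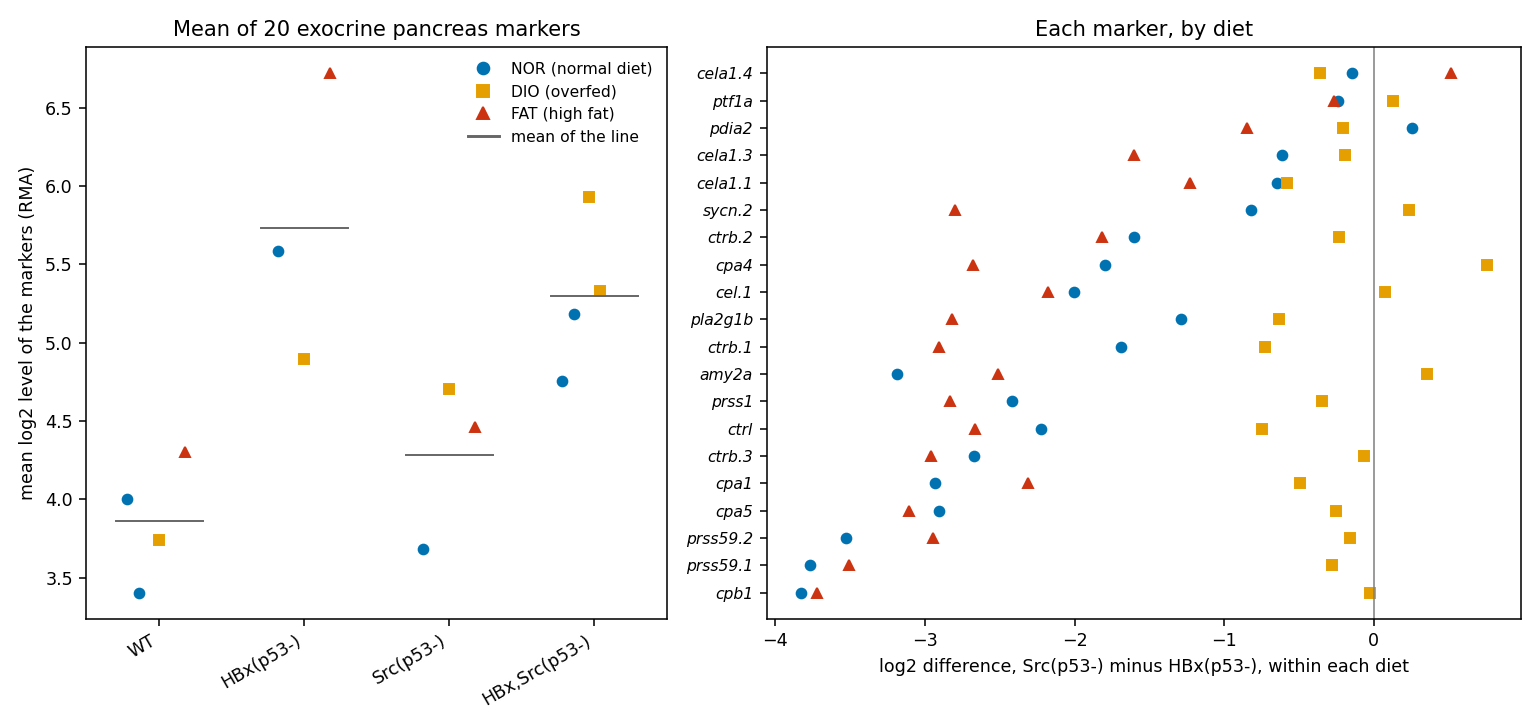
Left, mean log2 level of 20 exocrine pancreas markers on each of the 14 arrays, by line and diet. Right, difference of each marker between Src(p53-) and HBx(p53-) at each diet, 1 array against 1. The HBx(p53-) means are 4.89 to 6.72 and the Src(p53-) means 3.68 to 4.71, and the markers' median is −0.22 at DIO against −1.90 at NOR and −2.67 at FAT.

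The largest differences between lines, taken among genes whose arrays did not overlap, included several in genes that also varied widely between arrays of 1 line. il23r, named for the interleukin 23 receptor, was at 3.06, 5.14 and 2.52 in HBx(p53-) and 7.75, 7.56 and 6.68 in Src(p53-) (3.76 ± 1.10, adjusted p = 0.870), and WT was between 5.95 and 8.39. LOC100333709 was at 2.24, 2.60 and 3.94 against 6.81, 6.47 and 5.77 (3.42 ± 1.07). crp, one of several zebrafish genes of C-reactive protein, an acute phase protein, was at 9.88, 9.67 and 4.11 against 10.83, 11.40 and 11.63 (3.40 ± 1.52), so that its difference came mainly from the FAT array of HBx(p53-). crp1, a close relative, ran the other way, at 8.27, 8.01 and 7.16 against 5.13, 4.95 and 4.25 (−3.04 ± 0.80). Whether the probes of these near copies read one another was not tested. crp1 was also low in HBx,Src(p53-) (3.30 to 4.76), while WT was between 5.35 and 8.98.

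In the other direction SI:DKEY-15H8.1 had the largest mean difference, at 8.35, 8.06 and 7.72 in HBx(p53-) against 3.80, 3.46 and 2.65 in Src(p53-) (−4.74 ± 1.79, adjusted p = 0.961). Its WT arrays were at 8.35, 2.68, 1.78 and 7.66 and its HBx,Src(p53-) arrays at 6.99, 2.53, 7.86 and 8.17, and in a fit of the 6 arrays alone its adjusted p was 0.0212. si:busm1-57f23.1 was at 7.23, 8.39 and 6.99 against 1.96, 6.18 and 3.93 (−3.51 ± 0.83). si:ch211-133n4.9 was at 8.63, 3.79 and 6.17 against 3.64, 2.69 and 2.73 (−3.18 ± 1.19). Neither passed the test.

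At single diets, 1 array against 1, many more genes were over 2-fold apart: 2672 at NOR (12.8%), 1720 at DIO (8.23%) and 2035 at FAT (9.73%). Of these, 1469, 903 and 1236 were higher in Src(p53-). Only 35 genes were over 2-fold higher at all 3 diets (0.167%) and 21 over 2-fold lower (0.1%). The genes named from these 56 were chosen after their values were seen, and apart from zgc:171470 none passed the test.

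Among the 35 higher genes were miox, gstt2, ripk2 and tmtc1. miox, myo-inositol oxygenase, was at 8.85, 9.45 and 9.29 in HBx(p53-) and 10.81, 10.57 and 10.47 in Src(p53-) (1.42 ± 0.38). It was well expressed in all 6 livers, and every Src(p53-) array was above every HBx(p53-) array. WT was between 8.78 and 10.64 for miox. gstt2, a glutathione transferase, was at 5.65, 6.98 and 6.78 against 7.51, 8.64 and 8.14 (1.63 ± 0.39), and ripk2, a kinase of innate immune signalling, at 3.45, 3.86 and 3.21 against 5.72, 5.15 and 4.63 (1.66 ± 0.40). tmtc1 was at 2.95, 2.94 and 2.98 against 5.82, 4.89 and 5.91 (2.58 ± 0.71). With the exocrine pancreas covariate the difference was 1.04 for tmtc1 and 1.01 for ripk2. tmem43 (2.36 ± 0.53), raly (2.45 ± 0.71) and reep3a (1.60 ± 0.36, and 0.59 with its probe sets averaged) were also in this set. tmem43, an inner nuclear membrane protein, was low in the NOR array of HBx(p53-) alone (3.58), against 6.44 and 5.92 in its DIO and FAT arrays and 7.21 to 7.93 in Src(p53-).

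Among the 21 lower genes were msraa, ctsba and mhc2daa. msraa, a methionine sulfoxide reductase, was at 8.16, 7.77 and 7.87 in HBx(p53-) and 6.62, 6.52 and 5.86 in Src(p53-) (−1.60 ± 0.40), and WT was between 7.43 and 8.24. ctsba, the lysosomal protease cathepsin B, was at 6.51, 6.69 and 6.34 against 4.23, 5.33 and 3.49 (−2.16 ± 0.67). Both were even across the HBx(p53-) arrays, but ctsba differed by only −0.16 when its probe sets were averaged. mhc2daa, an MHC class II gene, was at 2.60, 3.00 and 4.39 against 1.23, 1.53 and 1.33 (−1.97 ± 0.69, and −0.60 with the covariate). MHC class II gene content is known to vary between zebrafish.

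For these genes the median of each other line was counted with the nearer of the Src(p53-) and HBx(p53-) means. Single arrays of a line could lie on the other side, as WT FAT did for zgc:171534. Of the 35 higher genes, WT was nearer to Src(p53-) for 14 and nearer to HBx(p53-) for 21, and HBx,Src(p53-) was nearer to Src(p53-) for 22 and nearer to HBx(p53-) for 13. Of the 21 lower genes, WT was nearer to Src(p53-) for 12 and HBx,Src(p53-) for 9. Over all genes, WT was nearer to Src(p53-) for 50.9% and HBx,Src(p53-) for 53.9%. WT lay with HBx(p53-) and HBx,Src(p53-) with Src(p53-), which divides the lines by whether they carry Src, for 13 of the 35 higher and 4 of the 21 lower genes, beside 4422 of all 20908. WT lay with Src(p53-) and HBx,Src(p53-) with HBx(p53-), which divides them by whether they carry HBx, for 5 of the 35 and 7 of the 21, beside 3808 of all. The sets were chosen on the compared arrays, so these counts are a description.

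The src gene itself was higher in Src(p53-) at every diet. It was at 4.59, 3.75 and 3.49 in HBx(p53-) and at 4.94, 6.01 and 5.01 in Src(p53-), a difference of 1.38 ± 0.39 (adjusted p = 0.870). The groups did not overlap, but at NOR they differed little. WT was between 2.57 and 4.46 and HBx,Src(p53-) between 4.23 and 5.03. Where the src probes lie in relation to the transgene is not given in the sources used here, so the probe set may not read all of the transgene's RNA. fabp10a, whose promoter drives both transgenes, was at 13.36, 13.22 and 12.98 in HBx(p53-) and alike in Src(p53-) (−0.06 ± 0.18), close to the top of the scale. mdm2, a ubiquitin ligase gene, differed by −0.21 ± 0.46.

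Of 24 measured Src family kinases and Src substrates, 16 were higher in Src(p53-). All Src(p53-) arrays were above all HBx(p53-) arrays for 6 (5.63% of all genes were) and below them for 1 (4.88% of all genes were). The list includes src itself, the gene of the transgene, which is 1 of these 6. 6 were higher and 1 lower at an unadjusted p under 0.05, and 0 were called. The median difference of the list was 0.25 beside 0.02 for all genes, and it was 0 with the exocrine pancreas covariate. csk, the kinase that inhibits Src, was at 5.33, 5.78 and 5.59 in HBx(p53-) against 6.23, 5.94 and 6.23 in Src(p53-) (0.57 ± 0.26, and 0.01 with the covariate). ptk2bb, a kinase of the Fak family, was at 1.89, 2.07 and 1.97 against 3.32, 2.35 and 2.44 (0.73 ± 0.27). pxna, a paxillin of focal adhesions, was at 5.54, 5.36 and 5.29 against 5.95, 6.40 and 5.97 (0.71 ± 0.31). In ptk2bb and pxna the lines did not overlap, although the differences were below 2-fold in the mean. ctnnd1, p120 catenin of the cell junction, was lower, at 7.67, 7.91 and 7.62 against 7.31, 7.34 and 5.39 (−1.05 ± 0.39), mainly through the FAT array. When its probe sets were averaged and the brightest one was not singled out, ctnnd1 differed by 0.35, so its direction is not settled.

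Growth signalling genes were balanced between the lines, and cell cycle genes were at low level in both. Of 28 genes of growth factor and oncogene signalling, 17 were higher in Src(p53-), with a median of 0.04. erbb3a, a receptor of the EGF receptor family, was at 4.27, 3.45 and 4.69 against 4.74, 5.31 and 5.99 (1.21 ± 0.31). Of 43 genes of the cell cycle and DNA replication, 32 were higher in Src(p53-) (beside 52.9% of all genes), 6 without overlap (beside 5.63%) and 0 called, with a median of 0.17. Their mean level was 2.24, 2.16 and 2.31 in HBx(p53-) and 2.40, 2.35 and 2.49 in Src(p53-), a separation of all 3 arrays whose exact two-sided permutation p was 0.1. Since 35 of the 43 genes were below 3, this was a small difference near the bottom of the scale, and the HBx,Src(p53-) arrays were higher (2.73 to 3.33). The means of all lists were compared by the same permutation, and only the cell cycle and exocrine pancreas lists reached 0.1. Among so many lists, some would reach it with no difference at all.

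Named members did not all point one way. mcm6, a subunit of the replicative helicase, was at 2.68, 2.26 and 2.75 against 3.41, 3.49 and 3.84 (1.02 ± 0.29). ccne2, cyclin E2, was at 2.63, 1.76 and 2.71 against 1.67, 1.44 and 1.61 (−0.79 ± 0.24), and gins2, another part of the helicase complex, differed by 0.85 ± 0.35. Of 25 genes of pyrimidine metabolism 19 were higher, with a median of 0.32, and of 25 p53 targets 9 were higher, with a median of −0.13; 0 members of either list were called.

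Metabolic and detoxification genes were mixed. Of 56 genes of xenobiotic and bile acid metabolism 22 were higher in Src(p53-), 4 were higher and 5 lower at an unadjusted p under 0.05, and the median was −0.13. The cyp2aa genes pointed in different directions: cyp2aa9 was higher as above, whereas cyp2aa12 was at 7.02, 6.35 and 6.80 in HBx(p53-) against 4.56, 5.45 and 5.84 in Src(p53-) (−1.44 ± 0.35), and cyp2aa3 differed by −0.66 ± 0.21. abcb11a, related to the bile salt export pump, was at 2.72, 2.61 and 2.77 against 2.10, 1.92 and 2.04 (−0.68 ± 0.24). Of 32 genes of oxidative stress and glutathione, 12 were higher, with a median of −0.11. Of 27 glycolysis genes 17 were higher, with a median of 0.08, led by hk2, hexokinase 2, at 3.09, 3.38 and 3.02 against 4.48, 3.77 and 5.24 (1.33 ± 0.41, and 0.21 with the exocrine pancreas covariate).

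Of 29 genes of fatty acid and triglyceride synthesis 14 were higher in Src(p53-), with a median of −0.07. The 5 members with the largest test statistics were lower. Without overlap, 2 others were higher (6.9%, beside 5.63% of all genes) and 0 were lower (beside 4.88%). thrsp, which promotes lipogenesis, was at 9.37, 5.26 and 6.35 in HBx(p53-) against 4.75, 3.24 and 5.66 in Src(p53-) (−2.44 ± 1.09). elovl6, a fatty acid elongase, was at 8.35, 6.27 and 4.36 against 3.93, 3.69 and 4.73 (−2.21 ± 1.18). me1, malic enzyme, was at 6.06, 5.04 and 3.97 against 4.19, 3.88 and 4.08 (−0.97 ± 0.35). For all 3 the NOR array of HBx(p53-) was the highest of the 6. Of 19 genes that the study named, 11 were higher, with a median of 0.08 and 0 called. slc40a1, the iron exporter ferroportin, was at 9.82, 10.60 and 9.95 against 9.40, 9.01 and 8.80 (−1.05 ± 0.82), and lpin1a, a phosphatidate phosphatase, at 7.35, 6.78 and 6.30 against 6.40, 8.16 and 10.70 (1.61 ± 1.19). The value of lpin1a rested on the FAT array of Src(p53-), without which the difference was −0.04.

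Immune genes were mixed too. Of 40 genes of inflammation and Toll-like receptor signalling, 17 were higher in Src(p53-), 2 of them without overlap (5.63% of all genes were), while 6 had all Src(p53-) arrays below all HBx(p53-) arrays (4.88% of all genes did), and the median was −0.13. irak4, a kinase of the Toll-like receptor pathway, was at 4.30, 4.64 and 4.66 against 4.23, 3.80 and 3.85 (−0.57 ± 0.24). traf6, the ubiquitin ligase below it, was at 6.74, 6.79 and 6.86 against 6.30, 6.59 and 6.22 (−0.42 ± 0.20), and the chemokine gene cxcl8a at 2.01, 1.56 and 1.95 against 1.34, 1.44 and 1.37 (−0.45 ± 0.18). These were lower without overlap, but by less than 2-fold. All 6 values of cxcl8a were below the array medians, so it was not shown to be above background. Leukocyte markers were between 3.24 and 3.60 in HBx(p53-) and between 3.41 and 3.84 in Src(p53-). Among 74 finTRIM and small interferon-induced genes, 44 were higher, and ftr54, of the zebrafish finTRIM family, was at 5.32, 6.23 and 2.47 against 2.37, 2.58 and 2.17 (−2.30 ± 0.64), with the FAT array of HBx(p53-) beside Src(p53-).

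Of 67 mitochondrial ribosomal proteins, 45 were higher in Src(p53-), 5 without overlap (7.46%, beside 5.63% of all genes), with a median of 0.20 that was −0.13 with the exocrine pancreas covariate. mrpl11 was at 1.85, 2.17 and 1.80 against 2.52, 2.48 and 2.82 (0.67 ± 0.19, and 0.27 with the covariate). The 67 cytosolic ribosomal proteins were balanced (39 higher, median 0.02), although rps8b was lower, at 6.30, 6.59 and 6.41 against 4.91, 5.06 and 5.63 (−1.24 ± 0.35). Of 33 circadian clock genes 20 were higher. cry5, a cryptochrome or photolyase gene, was at 3.31, 4.14 and 4.16 against 2.53, 3.50 and 3.35 (−0.74 ± 0.20) and so was lower by a like amount at each diet.

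The lines were then compared by diet, with DIO and FAT pooled as the obesity diet, as in the study's methods. Under normal diet, 1 array against 1, 0 of 20908 genes were called in either direction (0%), with a lowest adjusted p of 0.204 by limma and 1296 genes at an unadjusted p under 0.05. Under obesity diet, 2 arrays against 2, 2 genes were called higher in Src(p53-) (0.00957%) and 0 were called lower (0%), with 792 at an unadjusted p under 0.05. These were zgc:171470 (6.33 ± 0.67, adjusted p = 0.0485) and dscama (4.75 ± 0.46, adjusted p = 0.043). dscama, a cell adhesion molecule of the immunoglobulin family known from neurons, was at 7.53 in HBx(p53-) NOR but at 3.75 and 3.30 in its DIO and FAT arrays, against 8.02, 8.54 and 8.00 in Src(p53-). All WT arrays (6.42 to 8.00) and HBx,Src(p53-) arrays (6.47 to 7.25) were high, so the HBx(p53-) fish on obesity diet stood alone. Both calls were close to the threshold. 0 genes were called when WT NOR 1, WT NOR 2, HBx(p53-) DIO, Src(p53-) DIO, Src(p53-) FAT or any 1 of the 4 HBx,Src(p53-) arrays was left out, 2 different genes (apoa4a and tas1r3) were called without HBx(p53-) FAT, and 4 without WT DIO or without WT FAT.

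Whether diet moved the lines differently was tested as the change from NOR to obesity diet in Src(p53-) minus that in HBx(p53-). 0 genes were called (0%), with a lowest adjusted p of 0.494. At an unadjusted p under 0.05, 563 were positive (2.69%) and 496 negative (2.37%), in all 1059. The median standard error of this difference was 0.601, with 1 NOR array per line.

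Several of the genes with the largest test statistics had crossing patterns. cyp2aa1 was at 5.46, 2.91 and 3.23 in HBx(p53-) NOR, DIO and FAT and at 2.92, 3.85 and 3.93 in Src(p53-) (3.36 ± 0.43, adjusted p = 0.494). pcgf5b, a polycomb group gene, was at 7.19, 5.38 and 5.71 against 4.52, 6.72 and 6.17 (3.57 ± 0.62). ormdl3, a regulator of sphingolipid synthesis, was at 7.60, 5.94 and 6.51 against 5.93, 7.74 and 7.41 (3.01 ± 0.56). In these genes HBx(p53-) was lower on obesity diet than on NOR, and Src(p53-) was higher. gcna, a germ cell gene, was at 2.91, 4.11 and 3.34 against 4.66, 2.07 and 1.99 (−3.44 ± 0.53), and sobpb at 2.31, 4.97 and 4.79 against 4.70, 3.59 and 4.35 (−3.30 ± 0.52), the reverse pattern. Others did not cross. zgc:173713 was high in Src(p53-) NOR only, at 3.92 against 0.84 to 1.24 in the other 5 arrays (−2.77 ± 0.41), as was taar12b, a trace amine receptor gene, at 4.25 against 1.45 to 1.98 (−2.32 ± 0.41). dscama was higher in Src(p53-) at every diet, and most so on the obesity diet (4.26 ± 0.79). Adjusted p for the genes of this ranking was between 0.494 and 0.975.

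No gene passed that test, but the medians of several lists were far from 0 at NOR and near 0 or of opposite sign at DIO and FAT. Most genes of cholesterol synthesis, the proteasome, protein processing in the ER and the aminoacyl-tRNA synthetases were higher in Src(p53-) than in HBx(p53-) at NOR, and most genes of the fasting response and of ribosome biogenesis were lower. Each NOR value is 1 fish against 1, and without either NOR array there is no value, so the medians below describe these fish and were not tested. Over all genes the medians at NOR, DIO and FAT were 0.00, 0.02 and 0.02, and that of the diet change difference was 0.01.

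**Figure D4:**
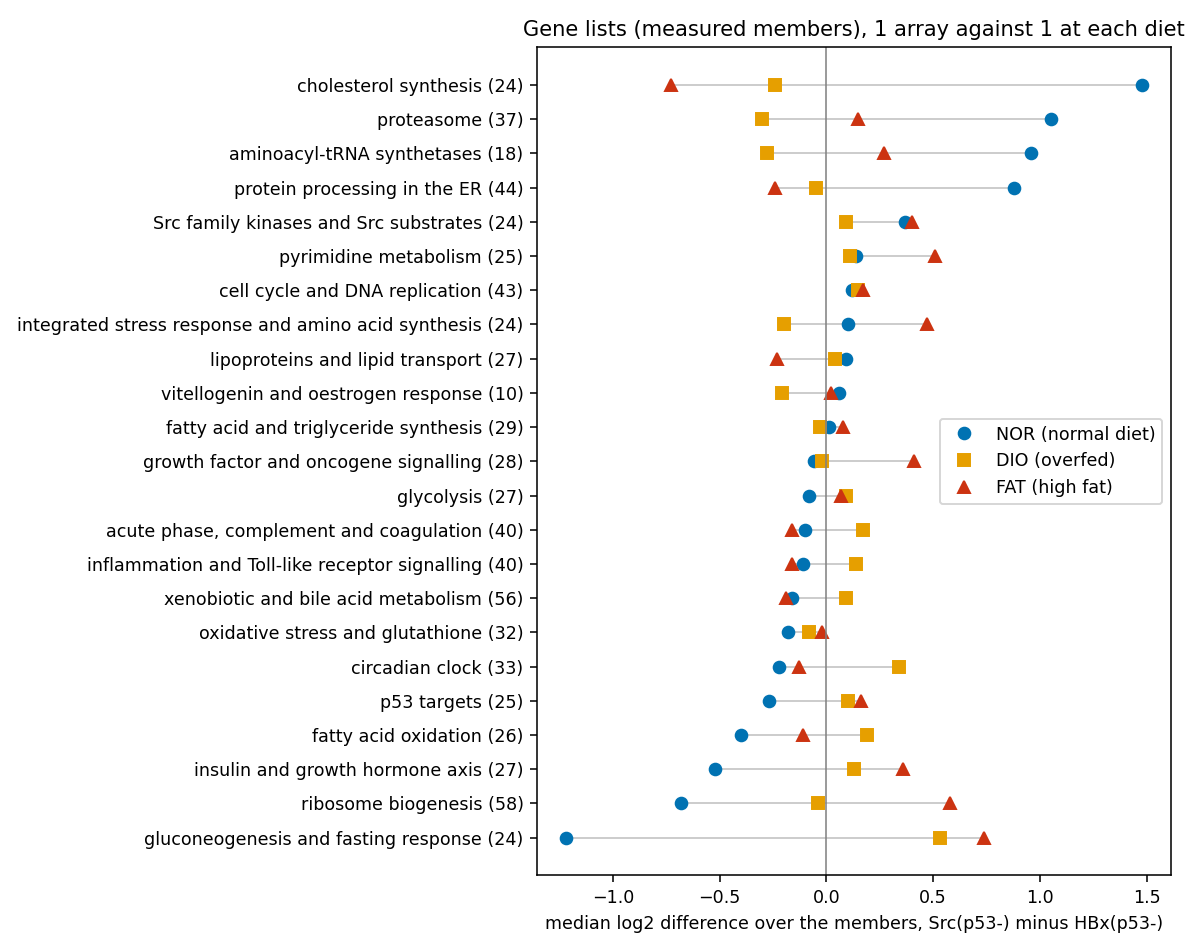
Median log2 difference, Src(p53-) minus HBx(p53-), over the measured members of 23 pathway lists (horizontal axis) at NOR, DIO and FAT, 1 array against 1 at each diet. Cholesterol synthesis runs from 1.48 at NOR to −0.73 at FAT, and the fasting response from −1.22 at NOR to 0.74 at FAT.

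Of the 23 pathway lists, cholesterol synthesis had the largest median diet change difference. The median difference of the 24 measured was 1.48 at NOR, −0.24 at DIO and −0.73 at FAT, and 22 of 24 were higher in Src(p53-) at NOR. Their mean level was 5.57, 5.41 and 6.13 in HBx(p53-) and 6.89, 5.09 and 5.48 in Src(p53-). From NOR to DIO and to FAT the median member differed by −0.09 and 0.55 within HBx(p53-) and by −1.92 and −1.43 within Src(p53-). The diet change difference was negative for 21 of 24, with a median of −2.04, and 2 were at an unadjusted p under 0.05. mvk, mevalonate kinase, was at 1.35, 1.80 and 1.93 against 3.30, 1.43 and 2.24, and acat2, which makes acetoacetyl-CoA, at 5.52, 6.48 and 5.34 against 8.27, 5.38 and 5.51. Both were highest in the Src(p53-) NOR array. cyp51, a demethylase of lanosterol, was at 8.68, 7.52 and 10.03 against 9.62, 5.77 and 7.19, with its highest level in HBx(p53-) FAT. The mean of the list was between 5.22 and 7.22 in WT and between 5.03 and 8.72 in HBx,Src(p53-), a range that took in both lines. In HBx,Src(p53-), cyp51 was at 11.79 and 10.57 at NOR and at 7.45 and 6.37 at DIO. There mvk was at 6.33 and 3.39 against 1.97 and 1.99, and acat2 at 8.25 and 9.31 against 7.65 and 5.69. These members were thus higher at NOR than at DIO in that line, as in Src(p53-), which was not tested.

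The fasting genes, which raise glucose output under low insulin, ran the other way. The median of 24 was −1.22 at NOR, 0.53 at DIO and 0.74 at FAT, with 20 of 24 lower in Src(p53-) at NOR. Their mean was 7.96, 6.90 and 6.86 in HBx(p53-) and 6.60, 7.80 and 7.84 in Src(p53-), a crossing of the lines. The diet change difference was positive for 22 of 24 with a median of 1.91, and 5 were at an unadjusted p under 0.05. foxo1a, a transcription factor that insulin signalling keeps out of the nucleus, was at 8.50, 7.17 and 7.87 against 4.19, 9.13 and 8.61 (5.66 ± 1.72, adjusted p = 0.975). ppargc1a, the coactivator PGC-1 alpha, was at 8.50, 7.66 and 6.59 against 5.05, 7.91 and 8.19 (4.38 ± 1.63). pck1, phosphoenolpyruvate carboxykinase, which commits carbon to gluconeogenesis, was at 10.45, 11.03 and 7.83 against 6.66, 10.48 and 11.88. In foxo1a, ppargc1a and pck1 the Src(p53-) NOR array was the lowest of the 6. NOR arrays of 1 line could also lie far apart. Those of HBx,Src(p53-) were at 11.74 and 4.39 for pck1 and at 6.86 and 4.12 for ppargc1a. Those of WT were at 8.93 and 5.57 for foxo1a and at 8.70 and 6.17 for ppargc1a. The mean of the list was between 6.65 and 8.36 in WT and between 6.26 and 7.31 in HBx,Src(p53-). In 11 of the 24 genes both obesity arrays were higher than NOR in Src(p53-) and lower than NOR in HBx(p53-), and in 1 the reverse, beside 12.4% and 11.6% of all genes.

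Genes of protein synthesis and turnover split into those that were higher and those that were lower at NOR. For 44 genes of protein processing in the ER the medians were 0.88, −0.05 and −0.24, and 37 were higher in Src(p53-) at NOR. pdia6, a protein disulfide isomerase, was at 5.62, 6.88 and 6.59 against 7.83, 6.82 and 7.27, and derl2, of the pathway that clears misfolded proteins, at 4.83, 4.89 and 4.89 against 5.97, 4.79 and 5.08. derl2 was thus even in 5 arrays and higher in Src(p53-) NOR. On the WT arrays derl2 was between 5.79 and 6.20, and on those of HBx,Src(p53-) between 5.56 and 6.58. The mean of the ER list was between 7.524 and 8.556 in WT and between 7.315 and 8.551 in HBx,Src(p53-). For the proteasome it was between 5.394 and 6.55 in WT and between 5.839 and 7.055 in HBx,Src(p53-). For 37 proteasome genes the medians were 1.05, −0.30 and 0.15, with 34 higher at NOR, and for 18 aminoacyl-tRNA synthetases 0.96, −0.28 and 0.27, with 17 higher. vars1, the valine enzyme, was at 5.59, 6.10 and 4.94 against 7.58, 5.50 and 5.65, and psmd3, of the proteasome lid, at 6.40, 6.38 and 6.81 against 8.32, 7.10 and 6.55. The diet change difference had medians of −1.10, −1.14 and −0.81 for the ER, proteasome and synthetase lists, and it was negative for 36 of 44 ER genes and 33 of 37 proteasome genes, of which 6 and 0 were at an unadjusted p under 0.05. In the mean over the 3 diets all 18 synthetases were higher in Src(p53-), but at DIO 15 of them were lower. All Src(p53-) arrays were above all HBx(p53-) arrays for 0 of the 18, beside 5.63% of all genes. The median over the diets was 0.35, and −0.20 with the exocrine pancreas covariate.

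The 58 genes of ribosome biogenesis had medians of −0.68, −0.04 and 0.58, and 50 were lower in Src(p53-) at NOR. Their mean was 6.50, 6.37 and 5.52 in HBx(p53-) and 5.69, 6.37 and 6.07 in Src(p53-), so that the lines met at DIO. The diet change difference was positive for 53 of 58, with a median of 1.00, and 3 were at an unadjusted p under 0.05. nop56, of the small nucleolar RNA particles that modify ribosomal RNA, was at 8.27, 7.80 and 7.20 against 6.98, 7.75 and 7.60. heatr1, which works in ribosomal RNA synthesis, was at 8.05, 7.48 and 7.04 against 5.78, 7.31 and 6.67. Of the 6 arrays, both were highest in HBx(p53-) NOR and lowest in Src(p53-) NOR. For heatr1 the NOR arrays of HBx,Src(p53-) were at 7.24 and 4.40, and those of WT at 7.17 and 7.06. The mean of the list was between 5.52 and 6.80 in WT and between 5.31 and 7.13 in HBx,Src(p53-). In 19 of the 58 genes both obesity arrays were higher than NOR in Src(p53-) and lower in HBx(p53-), and in 0 the reverse.

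**Figure D5:**
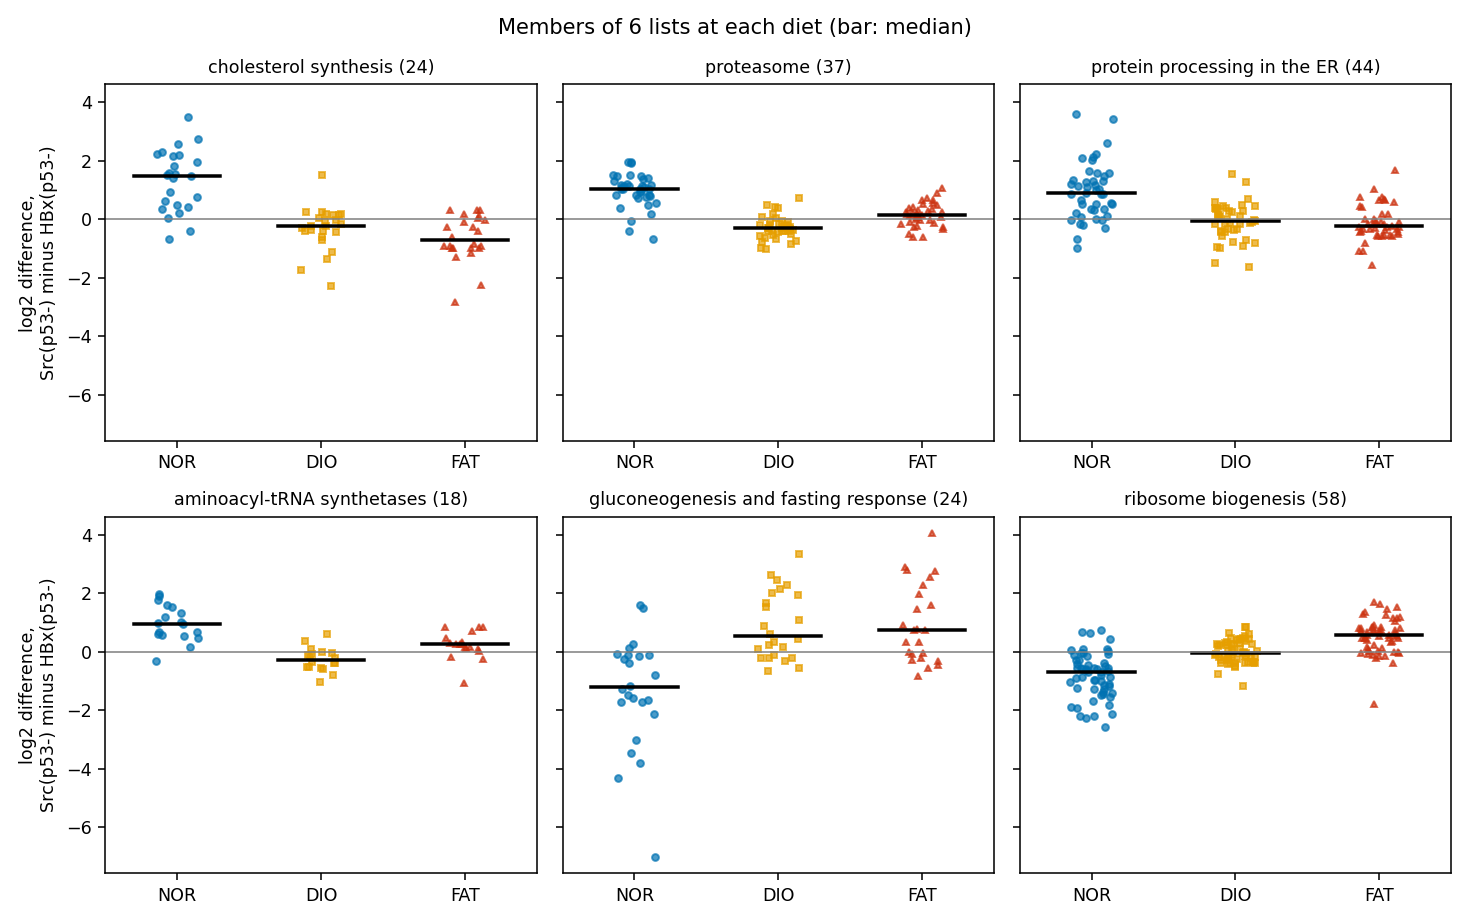
Log2 difference of each measured member of 6 lists, Src(p53-) minus HBx(p53-), at NOR, DIO and FAT (horizontal axis), 1 array against 1; a bar marks the median. At NOR, 22 of 24 cholesterol genes and 34 of 37 proteasome genes lie above 0, and 50 of 58 ribosome biogenesis genes lie below 0.

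Fatty acid oxidation and the insulin and growth hormone axis differed less. Their medians were −0.40, 0.19 and −0.11 for 26 oxidation genes and −0.52, 0.13 and 0.36 for 27 genes of the axis. The diet change difference was positive for 23 of the 26 and 19 of the 27, with medians of 0.50 and 0.61. For the Src family kinases and Src substrates the median was above 0 at each diet (0.37, 0.09 and 0.40), and that of the diet change difference was −0.47.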

How the data were processed

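Liver RNA of single fish had been hybridised to 14 ZebGene 1.1 ST arrays. The deposited values are log2 expression levels that the authors made by RMA with oligo, which corrects background, quantile normalizes the arrays and summarises each probe set; software versions and genome build are not given in the sources used here. The series value table of 75212 probe sets was used. A probe set was named where the platform annotation gave 1 symbol (30358 probe sets, with 1015 of several symbols and 43839 without a name), symbols were updated through RefSeq (20190 genes matched, 718 kept the platform's name), and the brightest probe set by mean level stood for a gene that had more than 1 (6449 genes), which gave 20908 genes with no filter on low values. Arrays have no read depth, so the number of arrays limits the precision.

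Genes were tested with limma 3.58.1 (R 4.3.3), two-sided, with Benjamini-Hochberg adjustment over the 20908 genes. The difference over diets came from an additive model of genotype and diet on all 14 arrays (8 residual degrees of freedom). The normal diet, the obesity diet (DIO and FAT) and the difference of the diet changes came from a model with a mean for each genotype on normal or obesity diet (6 degrees of freedom), in which the lone NOR arrays are assumed to vary like the other groups. Single scores were compared by exact permutation of the 6 arrays, without the pairing by diet. Values at 1 diet have no test. The fits were tested on simulated data. Of 769 genes in the 23 pathway lists and the list of genes the study named, 712 were measured, as were 194 of 215 in 12 marker lists; lists were described by counts and medians. The genes named were, per direction, the 12 with the largest moderated t and the 6 with the largest difference among genes without overlap, the 6 with the largest t for the diet change difference, up to 5 members of each list or family by moderated t, src, csk, mdm2 and fabp10a, and those the study named; those from the set over 2-fold at all diets were chosen after their values were seen. The members and lists were chosen with earlier results of these data known. Alternatives were the mean of the probe sets of a gene, all probe sets, a mean level of at least 4, trended robust moderation, median centring, quantile normalization over genes, an exocrine pancreas covariate, other model terms, and each array left out. Sequences and positions are not used here. Tables were handled in Python 3.11.15 with pandas 2.3.3 and numpy 2.4.6.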

Additional observations from a re-analysis of the deposited data

Results flagged for a closer look

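The 6 probe sets in this paragraph carry no gene symbol in the annotation used here, so the comparisons by gene leave them out. They were called lower in Src(p53-) when all probe sets of the array were tested over the diets with limma. A pair with identical values on every array was at 8.00, 10.77 and 8.26 in HBx(p53-) NOR, DIO and FAT and between 1.71 and 2.06 in Src(p53-), a difference of −7.13 ± 0.50 (SE, adjusted p = 0.00094). It was between 7.31 and 8.84 in HBx,Src(p53-) and between 1.79 and 2.59 in WT, so all 7 arrays that carry HBx were above all 7 that do not. Another 3 with identical values were at 5.85, 7.50 and 5.96 in HBx(p53-) and between 2.01 and 2.99 in Src(p53-), a difference of −3.85 ± 0.45 (adjusted p = 0.0497), with HBx,Src(p53-) between 4.38 and 7.09 and WT between 2.41 and 3.30. The last was at 5.33, 6.61 and 5.95 in HBx(p53-) and between 2.83 and 4.15 in Src(p53-), a difference of −2.39 ± 0.23 (adjusted p = 0.018), with HBx,Src(p53-) between 4.44 and 6.03 and WT between 3.29 and 3.77.

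In the following genes and lists both obesity arrays of 1 line lay above its NOR array while both of the other line lay below. Of all genes tested, 12.4% were higher on both obesity arrays in Src(p53-) and lower on both in HBx(p53-), and 11.6% the reverse. The value is the change from NOR to obesity diet in Src(p53-) minus that in HBx(p53-), and 0 genes passed the test of this difference (adjusted p between 0.494 and 1). It was positive for foxo1a (5.66), ppargc1a (4.38), pcgf5b (3.57), cpt1b (3.42), cyp2aa1 (3.36), ormdl3 (3.01), ctnnd2b (2.55), heatr1 (1.99), etfdh (1.90), LOC100535263 (1.86) and nop56 (1.46). cpt1b, carnitine palmitoyltransferase, and etfdh, an electron transfer dehydrogenase, serve fatty acid oxidation in mitochondria. It was negative for gcna (−3.44), sobpb (−3.30), slc7a1b (−2.54), usp25 (−2.07), mvk (−1.98), pdia6 (−1.91), nars1 (−1.56) and derl2 (−1.10). Among the lists it had a median of 1.91 for gluconeogenesis and the fasting response, 1.00 for ribosome biogenesis and −1.10 for protein processing in the ER, and for these lists the difference was not tested. No group held enough arrays to look for single outlying arrays.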

How the results depend on the processing

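Over the diets 1 gene was called, and the count was 7 with all probe sets, 0 with the exocrine pancreas covariate (zgc:171470 then 6.05, adjusted p = 0.105), 3 in the 6 arrays alone with or without a diet term, 3 with a mean for every genotype and diet, 2 without a diet term and 1 to 2 with 1 array left out. The second gene was zgc:171534 without WT FAT (adjusted p = 1.33e-07), dscama without HBx(p53-) NOR (0.00823) and si:dkey-14d8.6 without HBx(p53-) DIO (0.00993). Under normal diet 0 genes became 2 with trended robust moderation (taar12b and zgc:173713) and 0 to 1 with 1 array left out: zgc:171534 without WT DIO or WT FAT, and c3a.3 without either HBx,Src(p53-) DIO array. Under obesity diet 2 became 1 with the mean of the probe sets, 9 with all probe sets, 3 with trended robust moderation, 0 with the covariate and 0 to 4 with 1 array left out; with the covariate the differences stayed as large (dscama 4.76, zgc:171470 6.81, adjusted p = 0.456 for both). For the diet change difference 0 became 4 with all probe sets, and these 4, unnamed and with identical values, were at −5.02 ± 0.42 (adjusted p = 0.0288). The counts with all probe sets over the diets and under obesity diet also held probe sets with identical values. Some signals were thus counted more than once. The direction turned for ctnnd1 (0.35 with the mean of the probe sets), cpb1 (0.15 with the covariate) and lpin1a (−0.04 without Src(p53-) FAT, in a range up to 2.53 with 1 array left out), none of them called. Averaging the probe sets also took zgc:64002 to −0.23, cep192 to 0.43, mcm6 to 0.43, erbb3a to 0.45 and mtmr3 to 0.60. The cause was not tested for any of these. Of the named genes' other values 2623 kept direction and call, 9 passed the threshold newly and 24 no longer passed it. The median diet change differences given above for pathway lists kept their sign in all 21 alternatives run for them. They were from −2.12 to −1.81 for cholesterol synthesis and from 1.44 to 2.35 for the fasting response. For the exocrine pancreas markers the median was 0.70, and it kept its sign in 19 of the 21 (−0.25 to 1.77). The normal diet and diet change comparisons could not be run without HBx(p53-) NOR or Src(p53-) NOR. No paired analysis was possible because the Src(p53-) and HBx(p53-) arrays carry no replicate number, apart from the pairing by diet that the diet term makes; in the 6 arrays alone that pairing gave the 3 calls above, zgc:171470, zgc:171534 and SI:DKEY-15H8.1.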

Other observations

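When all 14 arrays were split by transgene, 21 genes (0.1%) had all 7 arrays that carry HBx above all 7 others, led by hsc70 with a gap of 0.634 between the groups, and 11 (0.0526%) had them below, led by zgc:171470 with a gap of 4.75. For the arrays that carry Src the counts were 20 above (0.0957%), led by pllp with a gap of 0.23, and 11 below (0.0526%), led by crp1 with a gap of 0.227. These splits were made after the values were seen and were not tested.

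Some genes with large differences were split within a line. c3a.3, a complement C3 gene, was at 3.69 in HBx(p53-) NOR, against 9.67 and 10.43 in its DIO and FAT arrays and 10.77, 10.88 and 10.15 in Src(p53-), and the other low array was 1 of HBx,Src(p53-) DIO (3.01). sult2st3, a sulfotransferase, was at 3.90, 2.80 and 2.32 in HBx(p53-) and 7.41, 6.79 and 4.09 in Src(p53-) (3.09 ± 1.22), and at 1.93, 7.34, 7.81 and 2.20 on the WT arrays. SI:DKEY-15H8.1, high on every HBx(p53-) and low on every Src(p53-) array, was split within HBx,Src(p53-), at 6.99, 2.53, 7.86 and 8.17.

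Of the 24 genes of the integrated stress response and amino acid synthesis, 12 were higher and 12 lower in Src(p53-), with a median of 0.06, 0 higher and 2 lower at an unadjusted p under 0.05, and 0 called. The members named here were chosen after their values were seen. cbsb, cystathionine beta-synthase, was at 5.91, 5.79 and 6.77 in HBx(p53-) and 7.71, 7.11 and 8.36 in Src(p53-) (1.57 ± 0.88), and cth, cystathionine gamma-lyase, differed by 1.14 ± 0.68 (0.09 with the exocrine pancreas covariate). slc3a2a, a subunit of amino acid transporters, was lower, at 6.73, 7.70 and 4.22 against 4.35, 4.79 and 4.19 (−1.77 ± 0.67). On the HBx,Src(p53-) arrays cbsb was at 8.01, 3.97, 7.94 and 7.67. The array at 3.97 lay below both lines, and the others lay within the Src(p53-) range. None of these genes was called. Outside this list, the amino acid transporter gene slc38a2 was at 6.78, 7.01 and 7.69 against 8.08, 8.37 and 10.36 (1.78 ± 0.74), and sesn1, sestrin 1, at 6.65, 5.43 and 6.18 against 8.25, 7.10 and 7.64 (1.57 ± 0.81). Neither was called (limma, adjusted p = 0.988 and 0.999). WT was between 7.19 and 9.79 for slc38a2 and between 4.54 and 8.92 for sesn1.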
